A study of Homo sapiens with 24 samples.

Results

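Described here are 2611 regions of the human genome where BCL11A had CUT&RUN peaks, TR4 had none, and both ends of every protein-coding gene record were more than 1 kb away. They are part of 79570 regions made by merging the peaks of all 24 libraries, of which 52463 had no IgG peak and were as far from gene ends on chromosomes 1 to 22 and X. Each of the 2611 had a peak in at least 2 of 3 libraries of each BCL11A-directed group, in 0 of the 9 TR4-directed libraries and in 0 of the 3 IgG libraries. The regions were thus chosen by the peak calls of these libraries, whose values are a description and carry no test.

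In CUT&RUN an antibody tethers a nuclease to chromatin, and the fragments cut loose around the protein are sequenced. The cells were HUDEP-2, an immortalized human erythroid progenitor line grown in expansion medium with SCF, erythropoietin, dexamethasone and doxycycline, with no further treatment. Clone B had BCL11A tagged with HA and MYC epitopes, clone T had TR4 tagged with FLAG and MYC epitopes, and clone TB had both tags, each clone being a single edited line. BCL11A-directed libraries were MYC clone B, HA clone B and HA clone TB, and TR4-directed libraries were MYC clone T, TR4 clone T and TR4 clone TB, with 3 libraries each. MYC clone TB, also with 3 libraries, reads both proteins through their shared epitope and the rule set no condition on its peaks. IgG was used once in each clone. Whether the 3 libraries of an antibody and clone stem from separate cultures is not stated in the labels, and a p-value here covers only the spread between libraries, which may be technical.

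BCL11A is a zinc finger repressor that silences the fetal γ-globin genes in adult red cells. It binds the short motif TGACCA and works with NuRD and other corepressor complexes. TR4 (gene NR2C2) is an orphan nuclear receptor that binds direct repeats of AGGTCA. Sites away from gene ends are often enhancers, stretches that act on a gene at a distance.

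Sequences from 4 of the regions, each covering at least 150 bases of a RefSeq start window, let motifs be set beside the peak summit. They are the stretches of RefSeq start windows (250 bases before to 50 after a start, GRCh38.p14) covered by regions with a peak in all 9 BCL11A-directed and all 3 MYC clone TB libraries, and they were picked after their values were seen. Capitals mark the BCL11A motif TGACCA, the NF-E2 and AP-1 motif TGACTCA, the nuclear receptor motif AGGTCA and the E-box CAGCTG, or the reverse complement of each. In order, the stretches come from the start windows of PRECSIT, AMD1, GRAP2 and GTPBP2. PRECSIT is a long non-coding RNA (chr13:110870259-110870558, minus strand), and AMD1 makes a polyamine synthesis enzyme (chr6:110874534-110874833, plus strand). GRAP2 is an adaptor of receptor signalling (chr22:39946567-39946866, plus strand), and GTPBP2 is a GTP-binding protein (chr6:43627308-43627518, minus strand). The protein-coding starts lie inside longer gene records, whose ends are more than 1 kb away.
PRECSIT: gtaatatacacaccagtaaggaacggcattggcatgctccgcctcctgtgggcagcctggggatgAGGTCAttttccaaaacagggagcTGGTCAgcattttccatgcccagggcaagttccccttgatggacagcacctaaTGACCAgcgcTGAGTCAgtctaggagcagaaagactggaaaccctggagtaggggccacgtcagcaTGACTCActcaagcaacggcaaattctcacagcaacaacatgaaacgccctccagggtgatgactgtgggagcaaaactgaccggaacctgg
AMD1: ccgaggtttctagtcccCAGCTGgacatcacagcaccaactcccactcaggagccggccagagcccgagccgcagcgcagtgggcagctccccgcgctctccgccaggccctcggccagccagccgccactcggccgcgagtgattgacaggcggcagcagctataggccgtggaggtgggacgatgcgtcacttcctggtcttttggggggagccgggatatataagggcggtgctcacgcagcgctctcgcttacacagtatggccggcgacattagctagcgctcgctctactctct
GRAP2: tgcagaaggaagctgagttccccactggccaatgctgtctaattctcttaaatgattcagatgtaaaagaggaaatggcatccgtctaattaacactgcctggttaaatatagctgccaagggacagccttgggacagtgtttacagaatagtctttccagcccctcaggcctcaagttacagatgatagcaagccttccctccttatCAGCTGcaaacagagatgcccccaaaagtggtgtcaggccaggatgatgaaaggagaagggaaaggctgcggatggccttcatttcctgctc
GTPBP2: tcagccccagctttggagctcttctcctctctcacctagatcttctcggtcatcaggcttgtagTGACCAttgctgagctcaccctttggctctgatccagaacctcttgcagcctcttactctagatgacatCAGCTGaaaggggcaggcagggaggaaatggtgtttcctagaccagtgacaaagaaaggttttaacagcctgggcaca

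The PRECSIT stretch carried 2 copies of TGACCA, 2 of TGACTCA and 1 of AGGTCA, counting both strands. Its median BCL11A summit, the base where the authors' caller placed the top of the peak, lay at base 138 from the 5′ end, next to the TGACCA at bases 143 to 148 and the TGAGTCA at bases 153 to 159. In GTPBP2 the summit lay at base 90 and the TGACCA at bases 65 to 70. These were the nearest of the stretches read: in LINC02394 and LOC124909373, not shown, TGACCA lay 161.5 and 122.5 bases from the summit. The AMD1 and GRAP2 stretches held no TGACCA, and their E-boxes lay 166 and 83.5 bases from the summits. The region at PRECSIT had fold enrichments from 20.4 to 47.3 in the 9 BCL11A-directed libraries, and the one at GTPBP2 from 6.74 to 25.0. A motif match is a string of letters in the window and not a measured binding site.

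Across the 130 distinct start windows of which the regions covered at least 150 bases (75 of protein-coding genes, 55 of lncRNAs), motif content was mixed. A window is 300 bases, and each motif was searched on both strands. TGACCA was in 10.8% of them and in 10.7% of all 34961 start windows. TGACTCA was in 9.23% (12 windows), against 4.92% of all windows, 4.15% of 289 windows on gene-distal regions of both proteins and 3.42% of 439 windows on BCL11A regions without TR4 at gene ends. AGGTCA was in 6.92%, against 13.8% of all windows, 12.1% on gene-distal regions of both proteins and 6.38% on BCL11A regions without TR4 at gene ends. The TGACTCA and AGGTCA shares of the regions both came to 8% (12 of 150 windows each) when windows with at least 50 covered bases were taken. TGACTCA was then in 3.92% of windows on gene-distal regions of both proteins and 3.07% on BCL11A regions without TR4 at gene ends. For AGGTCA these were 12.4% and 6.56%, and the shares of all windows stayed at 4.92% and 13.8%. The low counts limit how far these shares can be read. Against all windows, the GATA motif AGATAA was in 6.15% against 10.3% and the ETS motif CCGGAAG in 10.8% against 10.3%. The E-box CAGCTG was in 20.8% against 17.95% and the CACCC box CCACACCC in 3.85% against 3.29%. On gene-distal regions of both proteins and on BCL11A regions without TR4 at gene ends, AGATAA was in 3.46% and 5.24%. In the same order CCGGAAG was in 19.7% and 15.5%, CAGCTG in 16.3% and 16.6%, CCACACCC in 2.77% and 2.05% and TGACCA in 6.23% and 8.43%. A direct repeat of AGGTCA with any 1 base between the copies was in 0 of the 130 and in 8 of all windows. Each such repeat also counts as AGGTCA. The median GC content was 65.3% in the 130 windows and 58.7% in all.

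Peaks at the regions were fewest in replicate 3 of each BCL11A-directed group. In MYC clone B, 98.4%, 99.2% and 58.2% of the regions had a peak in replicates 1, 2 and 3. In HA clone B the shares were 97.6%, 98.8% and 55.7%, and in HA clone TB 96.1%, 97.0% and 62.2%. Replicate 3 also had the shortest list of each group, as it did in all 7 groups with 3 libraries. In the BCL11A-directed groups these lists held 13429, 12284 and 15163 peaks, against 24078 to 31432 in replicates 1 and 2. So 771 regions had a peak in all 9 libraries, 642 in 8, 664 in 7 and 534 in 6. The median fold over the regions with a peak was 7.72 to 11.3, depending on the BCL11A-directed library. Within the list of each of these libraries, the median region lay between the 51.6th and the 63.2nd percentile of fold, so the regions were mostly of middling strength there. In MYC clone TB the same median lay at the 45.0th to 48.1st percentile.

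**Figure D1:**
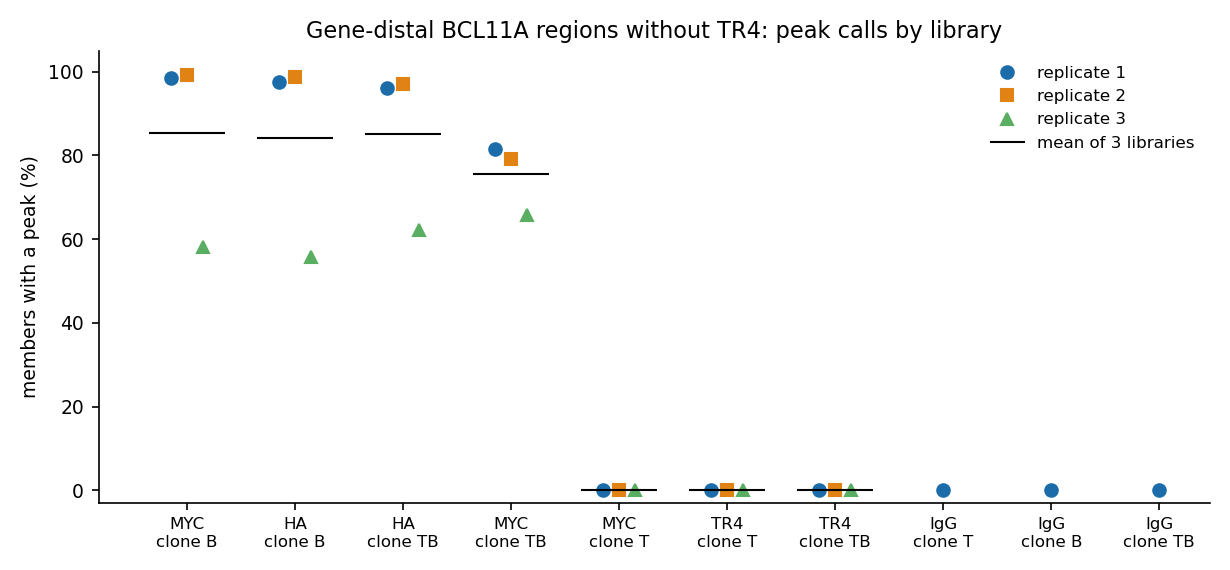
Share of the 2611 gene-distal BCL11A regions without TR4 that had a peak in each library (vertical axis, percent), by antibody and clone. Symbols are libraries and lines are means of 3. Replicate 3 lies at 55.7% to 62.2% in the BCL11A-directed groups, MYC clone TB lies between 65.8% and 81.5%, and the TR4-directed and IgG libraries are at 0 because the rule asked for it.

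Lists of the TR4-directed libraries were shorter (4621 to 14924 peaks) than those of the BCL11A-directed libraries (12284 to 31432). When every target list was limited to its 4621 best peaks, 471 regions met the rule, and 173 of them overlapped 1 of the 2611 regions. The absence of a TR4 peak therefore means a peak not called at these list lengths. The limit on TR4 was a gradual one: 823 further gene-distal regions met the BCL11A condition with a peak in 1 TR4-directed library, 520 in 2, and 510 in all 9. Another 45 met every condition but had an IgG peak, and 1476 missed because 1 BCL11A-directed group had a peak in only 1 of its 3 libraries. At the 1 kb limit the nearest regions inside the set lay 1004 bases from an end of DYNLRB1 and 1005 from PDIK1L, and the nearest outside lay 997 from SP5 and 996 from ZIC2.

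The MYC clone TB libraries, on whose peaks the rule set no condition, had peaks at most of the regions. Their peaks were among those merged, so they could widen or join regions but not choose them by a call of their own. They covered 81.5%, 79.2% and 65.8% in replicates 1, 2 and 3, or 75.5% ± 8.47 (SD, n = 3). Of the 2611 regions, 54.3% had a peak in 3 of 3 of these libraries, 24.9% in 2, 13.9% in 1 and 6.93% (181 regions) in 0. At least 2 of 3 had a peak at 2068 regions, 79.2%, while the same held for 28.1% of all 70402 regions without an IgG peak and 20.3% of the 52463 gene-distal ones. The background regions include many that were called in only a single library, so the comparison is with regions of any support.

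BCL11A regions without TR4 at gene ends, 1000 in number, gave nearly the same MYC clone TB share. It was 81.1%, 76.1% and 60.7%, or 72.6% ± 10.6 (SD, n = 3), and the gene-distal share was higher in 3 of 3 libraries by 2.89 percentage points ± 2.38 (SD). An exact sign-flip permutation test gave p = 0.25 (two-sided), the smallest that 3 libraries allow. With lists limited to 4621 peaks the difference was 0.600 points, with 3 of 3 libraries required in each BCL11A-directed group 1.15, with 1 TR4-directed library allowed 1.021, and with windows around summits in place of whole peaks 4.66. The 1248 gene-distal regions with a group peak in all 6 groups, called regions of both proteins here, had a MYC clone TB peak in 100%, 100% and 98.6% of cases. The share of the regions without TR4 minus theirs was -24.02 points ± 7.69 (SD), lower in 3 of 3 libraries (exact sign-flip permutation test, p = 0.25, again the smallest possible). The difference was -43.4 points with the limited lists and -7.22 with 3 of 3 libraries required. Regions of both proteins were chosen for peaks of both, which MYC clone TB reads, so the choice favoured this direction and the test decides nothing. Their BCL11A support was also firmer: 63.4% had a peak in all 9 BCL11A-directed libraries, against 29.5% of the regions without TR4.

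MYC clone TB detection moved with how firmly the BCL11A-directed libraries had the peak. Among regions with a peak in 6 of the 9 libraries, 57.3% had one in at least 2 of 3 MYC clone TB libraries. The share was 75.8% at 7 libraries, 81.9% at 8 and 95.1% at 9. At gene ends the matching shares were 63.6%, 73.3%, 85.2% and 95.8%, so the order by support was the same. Split into 4 groups of nearly equal size by mean fold percentile, the regions gave, from weakest to strongest, 62.6%, 74.3%, 84.5% and 95.4%, while regions with no MYC clone TB peak went from 13.5% to 0.919% of a group.

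**Figure D2:**
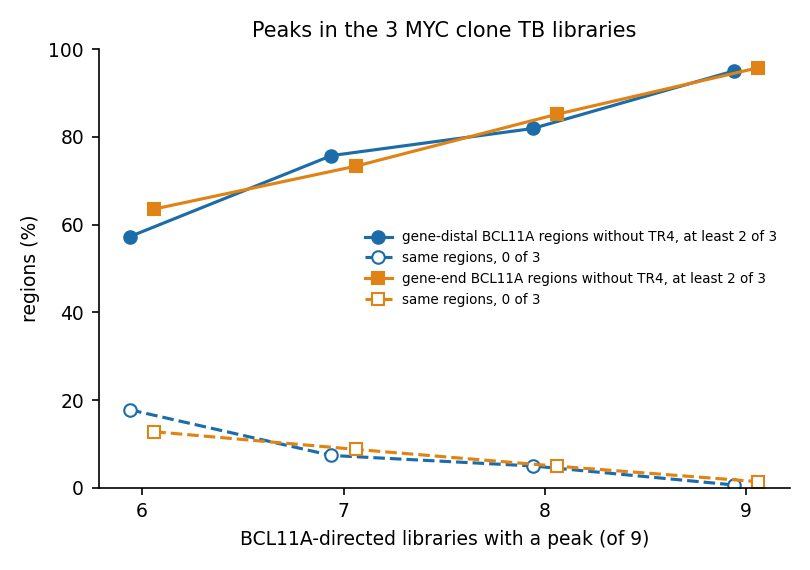
Share of regions (vertical axis, percent) called in 2 or 3 of the MYC clone TB libraries (filled symbols) or in 0 of 3 (open symbols), by the number of BCL11A-directed libraries with a peak (horizontal axis). Blue circles are gene-distal BCL11A regions without TR4 and orange squares those at gene ends; the filled blue points rise from 57.3% at 6 libraries to 95.1% at 9.

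Peak positions were close together between libraries. The median distance from a MYC clone TB summit to the median BCL11A-directed summit of the same region was 16.5 to 18 bases over the 3 libraries. For each BCL11A-directed library, measured against the median summit of the other BCL11A-directed libraries, the median distance was 15 to 19 bases. The regions were 266 bases wide at the median (83 to 1542), against 393 for gene-distal regions of both proteins.

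Ranked by mean fold percentile over the BCL11A-directed libraries, the first 10 regions had peaks in all 9 of these. First was chr22:39452325-39453192, 3820 bases from an end of MGAT3, which adds the bisecting GlcNAc to N-glycans, and inside no gene record. Its folds were 67.3, 74.5 and 47.9 in MYC clone B, 55.1, 50.9 and 40.9 in HA clone B, 55.4, 58.7 and 39.8 in HA clone TB, and 52.7, 40.7 and 40.9 in MYC clone TB. The 12 values ran from 39.8 to 74.5, with replicate 3 the lowest in the 3 BCL11A-directed groups.

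The second was chr21:42546947-42547772, inside SLC37A1, a sugar phosphate transporter of the endoplasmic reticulum. Its folds were 46.1, 55.7 and 44.7 in MYC clone B, 40.7, 67.4 and 41.1 in HA clone B, 67.6, 97.8 and 56.0 in HA clone TB, and 36.7, 64.1 and 51.4 in MYC clone TB. Here replicate 2 was highest in every group. SLC37A1 held 5 such regions and no gene-distal TR4 group region, meaning one with a peak in at least 2 of 3 libraries of a TR4-directed group.

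The third, chr2:46339992-46340504, was inside EPAS1, which makes the hypoxia factor HIF-2α, an inducer of erythropoietin. Its folds were 54.6, 36.5 and 34.5 in MYC clone B, 55.5, 39.6 and 18.6 in HA clone B, 53.2, 61.8 and 46.0 in HA clone TB, and 47.3, 33.9 and 35.3 in MYC clone TB. EPAS1 held 4 of the regions, and all 4 had a peak in 3 of 3 MYC clone TB libraries. The rest of the first 10 lay in KCNJ10, a potassium channel gene, ANKRD33B, MAN1A1, a Golgi mannosidase gene, ASTN2 and NFIX, near SPDEF, an ETS factor gene, and at the PRECSIT start. All 10 had a peak in 3 of 3 MYC clone TB libraries, with folds down to 8.65 (ANKRD33B, replicate 1).

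Ranked instead in MYC clone TB, the first 5 regions included SLC37A1, MGAT3 and EPAS1 again. The other two were chr3:128415957-128416513, inside EEFSEC, the selenocysteine elongation factor gene that neighbours GATA2, and chr12:127165938-127166219, inside the lncRNA LOC105370062. The EEFSEC region had folds of 42.7, 43.6 and 44.3 in MYC clone TB, 51.4, 49.0 and 27.4 in HA clone TB, 28.0, 21.9 and 15.1 in MYC clone B and 21.6, 13.1 and 11.9 in HA clone B. Its clone TB values were the higher ones, apart from HA clone TB replicate 3, which was just under MYC clone B replicate 1.

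The 181 regions with no MYC clone TB peak included some strong ones. The strongest by mean fold percentile, chr12:9455589-9455854, 138697 bases from KLRB1, had folds of 11.4 and 13.9 in MYC clone B, 28.2 and 23.3 in HA clone B and 13.6 and 19.6 in HA clone TB, all in replicates 1 and 2. The next, chr2:207417339-207417640, 112322 bases from CREB1, had a peak in 8 of 9 libraries with folds from 10.3 to 18.6. The third was chr10:113858652-113858894 inside NHLRC2, with 7 of 9 libraries and folds from 9.16 to 15.8.

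By position, 57.4% of the regions (1500; 95% Wilson interval 55.5% to 59.3%, counting error only) lay inside a protein-coding gene record. The share was 58.7% for gene-distal regions of both proteins and 53.5% for all gene-distal regions. The gene table gives no exons, so exon, intron or UTR was not assigned. The median distance to a protein-coding gene end was 15037 bases, against 7558.5 for regions of both proteins and 20503 for all gene-distal regions. Within 5 kb lay 24.1% of the regions and 37.4% of regions of both proteins, and beyond 50 kb 21.7% (566 regions) and 12.3%. A start window was touched by 6.05% (158 regions), against 24.5% of gene-distal regions of both proteins and 3.54% of all gene-distal regions. Within 1 kb of an end of another kind of gene lay 12.9%, 26.0% and 9.79%, in the same order.

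**Figure D3:**
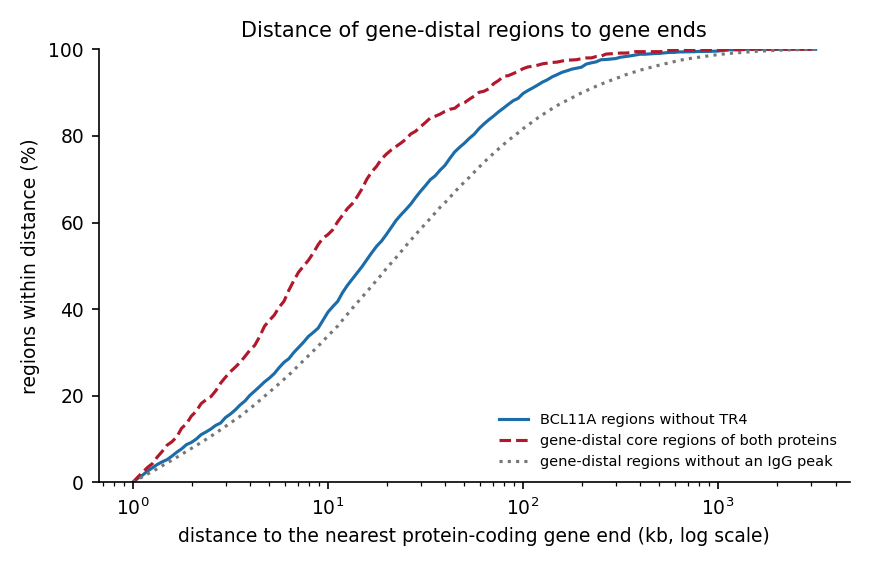
Share of regions (vertical axis, percent) within a distance of the nearest protein-coding gene end (horizontal axis, kb, log scale), for gene-distal BCL11A regions without TR4 (blue), gene-distal regions of both proteins (red dashes) and all gene-distal regions without an IgG peak (grey dots). The blue curve lies between the others, with medians of 15037, 7558.5 and 20503 bases.

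By chromosome, 12.3% of the regions were on chromosome 1 and 6.28% on chromosome 19. Chromosome 19 held 22.5% of gene-distal regions of both proteins and 6.15% of all gene-distal regions. Per 100 gene-distal regions, BCL11A regions without TR4 were most frequent on chromosomes 17 (6.66), 16 (6.59) and 1 (6.47) and least on chromosome 12 (3.58). The rule fixes TR4 absence in the regions but not beside them. A peak of any TR4-directed library lay within 1 kb of 12.9% of the regions and within 10 kb of 45.6%, with a median distance of 12440 bases. For other sets, TR4 peaks in regions of the set itself were not counted, so their shares are lower bounds and not a like measure. For gene-distal regions of both proteins they were 27.6% within 1 kb and 65.2% within 10 kb. For all gene-distal regions they were 1.75% and 15.2%, with the TR4 peaks in those regions left out, so no comparison is drawn.

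Peaks beside the regions were counted as the share of a library's peaks, outside the regions themselves, that lay within 10 kb of one. It was 11.2% ± 0.744 (SD, n = 9) in BCL11A-directed libraries, from 10.4% to 12.8%, and 6.54% ± 0.417 (SD, n = 9) in TR4-directed ones, from 5.84% to 7.01%. The ranges did not overlap, but both come from libraries and a contrast that the rule used, so no test is given. Within clone TB the HA libraries had 10.8% ± 0.282 and the TR4 libraries 6.39% ± 0.367 (SD, n = 3 each). MYC clone TB lay between, at 9.54% ± 0.315 (SD, n = 3), and the IgG libraries at 1.18% to 1.96%. Around BCL11A regions without TR4 at gene ends the shares were 5.51% ± 0.303 and 3.74% ± 0.244 (SD, n = 9 each), also without overlap. Around gene-distal regions of both proteins the order was the other way, 6.60% ± 0.188 in BCL11A-directed and 7.29% ± 0.391 in TR4-directed libraries (SD, n = 9 each), and there the ranges overlapped.

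**Figure D4:**
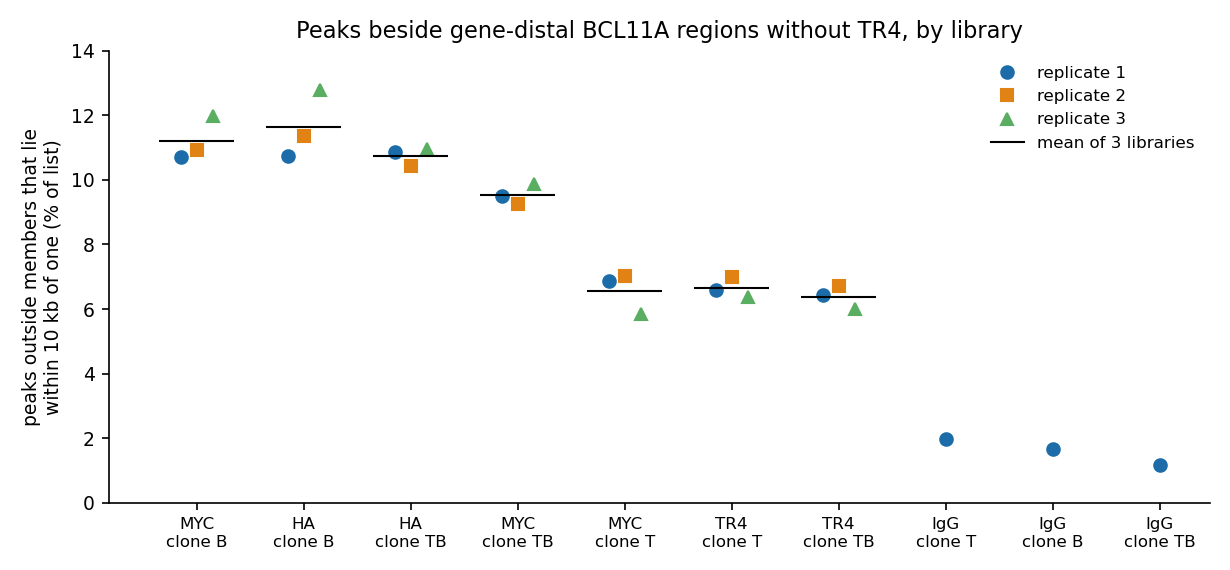
Peaks outside the gene-distal BCL11A regions without TR4 that lie within 10 kb of one, as a percent of each library's peaks outside the regions (vertical axis), by antibody and clone. Symbols are libraries and lines are means of 3; BCL11A-directed libraries sit between 10.4% and 12.8%, TR4-directed ones between 5.84% and 7.01%.

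Most of the regions stood alone. Within 12.5 kb of another lay 757 of them, 29.0% (95% Wilson interval 27.3% to 30.8%), in 319 clusters, of which 244 were pairs and 9 had 5 or more. The share was 23.5% for the 1248 gene-distal regions of both proteins and 59.2% for the far denser set of all gene-distal regions. A share of this kind rises with the number of regions in the set.

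The largest cluster held 9 regions on chr1:161440089-161473685, with FCGR2A the nearest protein-coding gene, and lies in a tandem array of tRNA genes. The span holds 23 tRNA records, and 8 of the 9 regions cover at least 1, among them genes for glycine, aspartate, leucine and glutamate tRNAs. All 9 regions had a peak in 3 of 3 MYC clone TB libraries, and 6 in 9 of 9 BCL11A-directed ones. The copies of this array are near-identical, so reads cannot always be assigned to a copy and the number of regions is uncertain. In all, 13 of the 2611 regions (0.498%) touched a tRNA record, those 8 included, against 0.721% of gene-distal regions of both proteins and 0.311% of all gene-distal regions. Those 13 had a peak in 3 of 3 MYC clone TB libraries in 12 cases (92.3%), against 54.3% of all 2611 regions. They were also stronger, with a median mean fold percentile of 68.8 against 54.7 for all. Since 8 of the 13 come from the 1 array, they are not separate cases.

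The next clusters were 8 regions in GSE1 (chr16:85370107-85395755), 6 between NANOS3 and ZSWIM4 (chr19:13838898-13850686), 6 in PLEC, which links the cytoskeleton to junctions, and 6 in LMNA, the gene of lamins A and C (chr1:156103588-156130567). In LMNA all 6 had a peak in at least 2 of 3 MYC clone TB libraries, and in GSE1 6 of 8 did.

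Genes with the most regions inside their record were mainly long. A region lay inside 1146 of 19974 protein-coding genes (5.74%), 75 genes held 3 or more, and the median record was 115067 bases for those 75 against 24115 for all. GSE1, whose protein is found in HDAC corepressor complexes, held 11, BCOR, a corepressor partner of BCL6, 9, MBP, the myelin basic protein gene, 8, ZFPM1, which makes the GATA1 cofactor FOG1, 8, PLEC 7, and NFIX, LMNA and KSR1, a scaffold of the RAF-MEK-ERK pathway, 6 each. Not all of these genes lacked TR4. GSE1 (chr16:85169512-85676200) had 24 regions with a peak in at least 1 TR4-directed library and ZFPM1 (chr16:88451769-88537031) had 11.

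BCOR (chrX:40051246-40177277) had 9 BCL11A regions without TR4. The 1 region with a TR4 peak was centred at 126.06 kb, just past the end of the 126.032 kb record. It had peaks in 2 TR4-directed libraries. The strongest of the 9 was chrX:40107343-40107743. Its folds were 12.6, 22.5 and 8.63 in MYC clone B and 20.6, 19.3 and 6.52 in HA clone B. They were 18.6, 16.9 and 8.37 in HA clone TB and 13.6, 12.1 and 10.9 in MYC clone TB. Of the 9 regions, 5 had a peak in at least 2 of 3 MYC clone TB libraries, and 2 had a peak in all 9 BCL11A-directed libraries. In ZFPM1 the counts were 8 of 8 and 5 of 8.

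**Figure D5:**
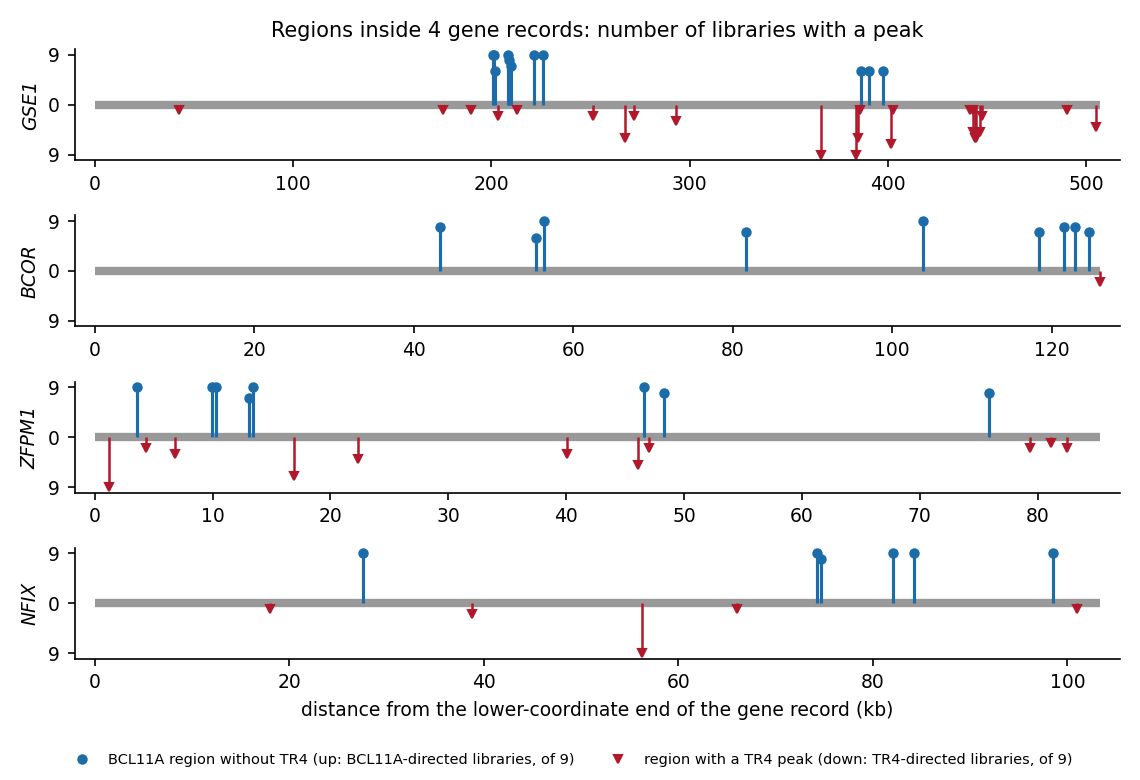
Regions in the records of GSE1, BCOR, ZFPM1 and NFIX, by distance from the lower-coordinate end of the record (horizontal axis, kb). The 1 red stem of BCOR is centred just past the record end. Blue stems point up to the number of BCL11A-directed libraries (of 9) with a peak at BCL11A regions without TR4, and red stems point down to the number of TR4-directed libraries (of 9) at regions with a TR4 peak; BCOR has 9 blue stems and 1 red, GSE1 11 and 24.

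Gene lists were counted by whether a gene had a region inside its record or within 50 kb, which 3851 of all 19974 protein-coding genes had (19.3%). Neighbouring genes can share a region, and long records are hit more often, so the median record length stands beside each list. Among erythroid transcription factors it was 15 of 25 genes (60%, median record 33501 bases), and 14 of the 15 had it within 10 kb, a distance at which 8.97% of all genes had one. ZFPM1 had 8 regions, all with a peak in at least 2 of 3 MYC clone TB libraries. The strongest, chr16:88461565-88461903, had folds of 22.6, 17.6 and 14.9 in MYC clone B, 15.6, 25.2 and 22.6 in HA clone B, 25.9, 21.2 and 31.4 in HA clone TB and 10.98, 15.8 and 27.3 in MYC clone TB. TCF3, the E-protein partner of TAL1, and LYL1 had 6 each. GATA1, KLF1, NFE2 and LDB1 had none.

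The strongest region near LYL1 lies inside its neighbour NFIX, at chr19:13069421-13069948. NFIX is a nuclear factor I gene known to bear on fetal globin silencing. The region's folds were 45.0, 43.8 and 29.9 in MYC clone B, 35.3, 44.3 and 30.7 in HA clone B, 16.98, 28.2 and 21.3 in HA clone TB and 22.2, 25.5 and 26.1 in MYC clone TB. All 6 clone B values were above the 6 clone TB values, though folds of separate lists are not on 1 scale.

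Among fetal globin regulators 8 of 20 genes had a region (40%, median record 60598 bases), led by NFIX with 9, then SPOP, HBS1L and NFIA with 2 each. BCL11A itself, SOX6, LIN28B, NR2C1 and NR2C2 had none. The HBS1L region chr6:135093614-135093949 lies between HBS1L and MYB, an interval known for variants linked to fetal hemoglobin, and 38792 bases from HBS1L. It had a peak in 8 of 9 BCL11A-directed libraries, all but MYC clone B replicate 3, with folds from 8.14 to 24.7, and in MYC clone TB replicates 1 and 2 with 5.75 and 8.21.

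The globin genes had a region in 2 of 10 cases (20%, median record 1591.5 bases), HBZ and HBM, embryonic ζ-globin and μ-globin. That share is near the 19.3% of all protein-coding genes, and 0 of the 10 had a region within 10 kb. The HBZ and HBM counts rest on regions inside NPRL3, and the 2 genes share 1 of these. NPRL3 introns are known to hold the upstream α-globin enhancers. At chr16:120009-120282 folds were 7.58, 8.51 and 6.84 in MYC clone B, 7.44, 10.2 and 7.45 in HA clone B, 14.6, 7.99 and 6.19 in HA clone TB, and 5.71 and 9.78 in MYC clone TB replicates 2 and 3. At chr16:104997-105217, 8 of 9 libraries had a peak with folds of 3.99 to 10.6, and MYC clone TB had 9.07, 11.3 and 11.6. These were weak peaks, at mean percentiles of 49.2 and 30.3. No region within 100 kb of the β-globin genes met the rule. At HBB itself, regions at chr11:5225572-5225851 and chr11:5226533-5227262 had peaks in 8 and 9 of the BCL11A-directed libraries and in 0 TR4-directed ones, but lay 108 and 0 bases from the gene's ends. Farther off, chr11:5288107-5288409, 12605 bases from OR51B4, had peaks in 9 BCL11A-directed libraries and in 1 TR4-directed library.

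In the heme and iron list 15 of 30 genes had a region (50%, median record 20665 bases). They included ALAS2, the first enzyme of erythroid heme synthesis, FECH, UROS, PPOX and ALAD of the same pathway, and TFRC and TFR2, transferrin receptors. The TFR2 region chr7:100604730-100604936, inside PCOLCE, was the strongest, with folds of 8.25 to 29.4 over the BCL11A-directed libraries and 10.2 to 13.5 in MYC clone TB. Among red cell membrane genes it was 16 of 35 (45.7%, median record 33516 bases), with 7 regions near PIEZO1, a mechanically gated ion channel gene, 6 near SLC4A1, the band 3 anion exchanger, and 5 near RHD, of the Rh blood group. RHD and RHCE are near-identical, so their regions are uncertain. The strongest region near PIEZO1, chr16:88791809-88792534, had folds of 9.23 to 22.4 and 10.5 to 14.05 in the same order, and a peak in all 12 libraries.

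Signalling and control genes were counted in the same way. Of the erythropoietin and KIT signalling genes 11 of 25 had a region (44%, median record 75119 bases), among them SOS1, LYN and CISH, while EPOR, KIT and JAK2 had none. STAT3, STAT5A and STAT5B count the same region. Hypoxia genes had 6 of 15 (40%, median record 26848 bases), led by EPAS1 with 4 and VEGFA with 2. Of NuRD and other corepressor genes 12 of 26 had one (46.2%, median record 68643 bases), among them BCOR with 9 and MTA1 with 4. Cell cycle control genes had 8 of 26 (30.8%, median record 11615.5 bases), led by CCND1 with 3.

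Markers of other blood lineages and ribosomal protein genes served as further lists. Megakaryocyte and platelet genes had a region in 9 of 22 cases (40.9%, median record 17928.5 bases), led by TUBB1, GP9 and ITGB3 with 2 each. Myeloid and lymphoid markers had 4 of 24 (16.7%, median record 13175 bases), a share near the background: S100A8, S100A9, CEBPE and SPI1, none within 10 kb. Within 100 kb it was 9 of 24 (37.5%), against 28.6% of all genes. Cytosolic ribosomal protein genes had 19 of 76 (25%, median record 4905 bases), 6 of them within 10 kb (7.89%, against 8.97% of all genes). At 10 kb the share was 37.1% for red cell membrane genes, 30.8% for corepressor genes and 30% for heme and iron genes. It was 24% for erythropoietin and KIT signalling and 23.1% for cell cycle control. Fetal globin regulators and hypoxia genes had 20% each, and megakaryocyte and platelet genes 18.2%. The counts describe where the regions lie and do not tell which gene a region acts on.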

How the data were processed

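The authors deposited 1 peak list per library. The build was GRCh38, and MACS2 2.1.4, SAMtools, Picard, Bowtie2 and Trimmomatic are named without a role, per the submitters' processing notes. Each deposited peak carries the authors' fold enrichment (a linear ratio), −log10 q-value and summit, and a display score that is the authors' −log10 q-value times 10 and was not used. Folds served only to describe peaks or to rank them within a list (percentile). Reads were not analysed here, so depth is unknown and list length stands in its place.

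Peaks sharing at least 1 base were merged. Gene records came from RefSeq (GRCh38.p14, 20037 protein-coding records, without strand or exons). Of these, 171 are listed out of chromosome order and may carry scaffold positions. The members and gene lists were chosen with earlier results of these data known. Named regions are the 10 with the highest mean fold percentile, the first 5 in MYC clone TB, the genes and clusters with most regions, up to 3 genes per list, all within 100 kb of globin genes, the strongest without a MYC clone TB peak, and those at the 1 kb limit. No genome sequence was used, so motifs were searched in RefSeq start windows in place of summits. The permutation test planned for peaks beside the regions is not reported, because those libraries chose the regions. Tests were exact sign-flip permutations over libraries (Python 3.11.15, NumPy 2.4.6, pandas 2.3.3, SciPy 1.17.1). On simulated lists all 980 planted regions were recovered. Each had a peak in every BCL11A-directed library and none in the TR4-directed ones, so this checked the code only.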

Additional observations from a re-analysis of the deposited data

How the results depend on the processing

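Limiting every target list to its 4621 best peaks left 471 regions, a MYC clone TB share of 54.1%, a flank difference (BCL11A-directed minus TR4-directed share of peaks within 10 kb) of 2.76 points and 21.02% of regions with a neighbour. Asking for 3 of 3 libraries per group gave 771 regions, 92.7%, 2.34 points and 18.4%, in the same order. A limit of 5 kb to gene ends moved the flank difference to 3.32 points and the neighbour share to 26.5%, and allowing 1 TR4-directed library moved the latter to 33.5%. Flanks of 5 and 25 kb gave 3.39 and 6.24 points, and gene-distal peaks alone, an alternative added after seeing the data, 5.72. Shares with a neighbour within 5 and 25 kb were 20.1% and 36.7%. List genes with a region fell from 125 to 73 within 10 kb. Without the gene records listed out of chromosome order, also added later, 2613 regions met the rule.

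Leaving out 1 library at a time gave 1396 to 2796 regions, a MYC clone TB share of 72.5% to 86.3%, a difference from gene-end regions of 1.64 to 4.14 points and from regions of both proteins of -26.8 to -13.6, a flank difference of 3.41 to 4.84, 56.7% to 59.9% inside gene records and 22.3% to 30.2% with a neighbour. The number of regions fell by over 1.5 times without replicate 1 or 2 of any BCL11A-directed group (1396 to 1548), where both libraries left, replicate 3 included, must have a peak. Replicate numbers were not used to pair the libraries, although some same-numbered pairs deviated together. Over same-numbered pairs r ran from -0.0766 to 0.480 (63 pairs, median 0.0117). For different numbers it ran from -0.390 to 0.170 (126 pairs, median -0.00605). Whether libraries with 1 number were handled together was not tested. The SDs of flank shares over 9 libraries treat as separate those that share a number or a clone, and may be too small or too large for that reason. With the replicate block the flank difference was 4.66 points, which the balanced design fixes, so it says nothing about pairing. Neither test could pass with 3 libraries, and p was 0.25 to 1 under the alternatives run. A least −log10 q of 5 gave 2424 regions, of which 1964 matched a main one, and allowing an IgG peak 2656. List length limits what can be said of TR4 absence; no interval that needs depth is given.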

Other observations

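A few groups of 4 regions were picked, after their values were seen, for having few MYC clone TB peak calls. Over all 2611 regions, 79.2% had a peak in at least 2 of 3 of these libraries. The share was 57.3% for regions with 6 BCL11A-directed libraries and 75.8% for those with 7. Counts this small, picked for their values, cannot be set against these shares. The 4 regions in the overlapping records of MFSD6 and NEMP2 on chromosome 2 had a peak in 6 or 7 of the 9 BCL11A-directed libraries, and 0 of the 4 had one in at least 2 of 3 MYC clone TB libraries. A cluster of 4 near PRPS1, a nucleotide synthesis enzyme gene on the X chromosome, had 2 of 4, and a cluster of 4 in BCOR, also on the X chromosome, had 1 of 4. By contrast, 8 of 8 regions in ZFPM1 and 6 of 6 in KSR1 had one. The strength of these regions differs, and its part was not tested.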
